A study of Mus musculus with 28 samples.

Results

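ETS transcription factors were followed in mouse colon organoids before and after the induction of conditional cancer alleles. The 10 genes described here, *Etv4*, *Etv5*, *Ets1*, *Ets2*, *Etv6*, *Elk1*, *Gabpa*, *Elf1*, *Elf3* and *Ehf*, were chosen by name, and all 10 were among the 13519 genes counted. They span the PEA3 members, the ETS1 and ETS2 pair, a repressor, a serum response cofactor, a nuclear respiratory factor and the epithelial members of the family.

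Bulk RNA-seq covered 28 samples of organoids from 7 C57BL/6N mice. AC came from 1 mouse, whereas PAC, BAC and BPAC came from 2 mice apiece, numbered as donors 1 and 2. With 2 cultures per mouse, numbered as duplicates 1 and 2, there were 14 cultures, every one of them split between the vehicle ethanol (EtOH) and 3.5 µM 4-hydroxytamoxifen (4-HT) for 24 hours, with RNA taken 3 days later. AC organoids carried Apc flox/flox and the Villin::CreERT2 transgene, and every other genotype carried both as well. PAC organoids had Trp53 LSL-R172H/+ in addition, BAC organoids had Braf floxV600E/+, and BPAC organoids had both. 4-HT activates the Cre recombinase, which the Villin promoter drives in intestinal epithelium. *Apc* recombination is thus shared by all 4-HT arms, no organoids without the floxed *Apc* allele were included, and an effect of *Apc* loss and one of 4-HT itself cannot be told apart. AC rested on 1 donor, so a property of that mouse and the AC genotype cannot be told apart either.

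ETS proteins share a DNA-binding domain that reads a GGAA core, and several of them are phosphorylated by ERK, the last kinase of the RAF, MEK and ERK cascade. BRAF V600E keeps this cascade active without a growth factor. The PEA3 genes *Etv4* and *Etv5* are also transcribed in response to ERK, because ERK relieves their promoters from the repressor Capicua (*Cic*), while *Elf3* and *Ehf* belong to differentiated epithelium. RNA counts cover the amount of each transcript and not its phosphorylation.

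Depth ranged from 20577276 to 40068718 counts per sample. The 4-HT samples of BAC and BPAC in duplicate 1 were the deepest, with 37438687 to 40068718 counts, against 26594188 to 30306835 in AC and PAC. *Trp53* ranged from 51.4 to 66.0 CPM, normalised counts scaled to the library size, in the 8 EtOH samples with the allele and from 97.9 to 121.6 in the 6 without, and from 147.6 to 227.0 and from 180.8 to 225.9 with 4-HT. *Braf* and *Apc* counts per gene do not separate the recombined from the intact allele. The *Xist* and *Ddx3y* transcripts, which mark female and male cells, were both above 5 CPM in 2 samples, the 4-HT samples of duplicate 1 from both PAC donors, and 1 of them was above it in each of the other 26. These 2 PAC samples were also the most alike of all pairs within a group, with a chi-square per gene of 2.36 against 8.43 to 284 in the others, so the PAC changes of the 10 genes and of the pathway genes called there are also given without duplicate 1. For genes other than the 10, and for its combination with the replicate block described below, this setting was chosen after the data were seen. The labels give the 2 samples to different donors. Whether they are independent was not tested, so the PAC 4-HT group may hold fewer than 4 independent samples, and their values may not be those of separate donors. All 8 epithelial markers were counted, with a summed level between 15908.1 and 28531.2 CPM. Of 11 fibroblast, immune and endothelial markers 4 were counted, together at 5.63 to 9.99 CPM. In bulk RNA, more cells of a type and more RNA per cell cannot be told apart.

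Promoter windows, from 250 bases before to 50 bases after an annotated start, were held by the RefSeq set of GRCm38.p6 for 7 of the 10 genes, in 9 windows. There was none for *Etv4*, *Ets1* and *Ehf*. The windows of *Etv5*, *Gabpa* and *Ets2* are shown because these 3 genes differed with the *Braf* allele after 4-HT. *Etv5* has 2 annotated starts on the minus strand, the upstream window at chr16:22439521-22439820 and the downstream one at chr16:22438319-22438618. *Gabpa* is at chr16:84834874-84835173 and *Ets2* at chr16:95702157-95702456, both on the plus strand. Each is written from 5′ to 3′ along the strand of its gene. Capitals mark GGAA, the ETS core, and TGAATG on either strand, which read as TTCC and CATTCA where the match is on the other strand.
Etv5 upstream: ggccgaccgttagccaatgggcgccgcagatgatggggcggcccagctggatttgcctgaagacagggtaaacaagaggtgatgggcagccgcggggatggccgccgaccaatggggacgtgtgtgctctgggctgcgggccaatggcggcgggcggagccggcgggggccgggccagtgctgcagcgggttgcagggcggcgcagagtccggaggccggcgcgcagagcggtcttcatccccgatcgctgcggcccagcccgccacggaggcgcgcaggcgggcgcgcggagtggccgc
Etv5 downstream: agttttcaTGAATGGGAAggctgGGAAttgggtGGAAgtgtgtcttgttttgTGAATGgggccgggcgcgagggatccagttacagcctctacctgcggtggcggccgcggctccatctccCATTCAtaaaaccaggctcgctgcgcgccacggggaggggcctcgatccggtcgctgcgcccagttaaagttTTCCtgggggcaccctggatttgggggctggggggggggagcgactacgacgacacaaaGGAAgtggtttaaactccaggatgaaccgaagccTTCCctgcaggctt
Gabpa: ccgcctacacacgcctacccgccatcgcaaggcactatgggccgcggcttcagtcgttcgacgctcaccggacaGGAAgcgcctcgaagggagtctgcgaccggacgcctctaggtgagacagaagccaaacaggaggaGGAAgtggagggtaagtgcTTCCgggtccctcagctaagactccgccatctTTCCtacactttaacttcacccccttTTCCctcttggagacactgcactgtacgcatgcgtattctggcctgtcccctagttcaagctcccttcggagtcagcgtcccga
Ets2: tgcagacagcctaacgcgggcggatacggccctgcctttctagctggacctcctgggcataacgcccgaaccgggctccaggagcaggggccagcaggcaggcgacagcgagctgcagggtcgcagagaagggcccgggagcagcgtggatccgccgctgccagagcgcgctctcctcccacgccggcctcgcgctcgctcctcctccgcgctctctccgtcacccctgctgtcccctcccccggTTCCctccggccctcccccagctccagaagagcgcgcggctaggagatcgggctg

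The downstream *Etv5* window held 6 GGAA matches and 3 matches of TGAATG, the core of the octamer that Capicua binds, and the upstream window held 0 of either. Of all 32851 windows, 96.0% held GGAA, with a median of 3 matches, and 12.7% held TGAATG. This core was searched after the windows had been seen. Neither the Capicua octamer TGAATGAA nor its variants TGAATGGA and TCAATGAA and TCAATGGA occurred in any of the 9 windows, and 3.84% of all windows held 1 of them. *Gabpa* held 5 GGAA matches, 1 of them within CCGGAA, a longer ETS site held by 14.9% of windows, and *Ets2* held 1 GGAA match. *Etv6* held 6 GGAA matches, *Elf3* 4, *Elk1* 2, and the 2 windows of *Elf1* held 2 and 1. The AP-1 site TGACTCA occurred in 1 of the 9 windows, the downstream one of *Elf1* (5.20% of all windows), and the TCF site CTTTGAT in 0 (3.73%). Each CCGGAA match holds a GGAA match, and an octamer that opens with TGAATG holds that core, so these counts overlap.

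Per kilobase of exon, *Elf3* was the most abundant ETS transcript of the 20 counted. With EtOH its level was 210.6 CPM per kilobase ± 27.2 (SD, n = 14), which was 52.3% ± 2.77 of the sum over the 20 genes. *Ehf* followed at 55.5 ± 4.60 and *Ets2* at 45.4 ± 4.25, with overlapping ranges. *Elf1* stood at 14.6 ± 1.13, *Etv6* at 10.9 ± 1.07, *Etv4* at 7.35 ± 1.03, *Gabpa* at 6.61 ± 0.857 and *Etv5* at 5.45 ± 1.88. From *Etv6* to *Etv5*, each neighbour in this order overlapped the next. *Elk1* at 1.02 ± 0.212 and *Ets1* at 0.723 ± 0.168 were the lowest of the 10 and overlapped as well. Per coding length *Gabpa* ranked above *Etv4* (27.6 against 15.6) and *Ets1* above *Elk1* (4.64 against 4.25). On that scale *Elf3* and *Ehf* lay close, at 398.0 and 343.7 CPM per kilobase with EtOH, and with 4-HT and the *Braf* allele *Ehf* was first (374.6 against 371.2).

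Shares of the family sum, per kilobase of exon, differed between arms for several members. *Etv4* made up 1.84% ± 0.314 of the family sum with EtOH, 2.81% ± 0.428 in the 6 samples with 4-HT and no *Braf* allele, and 6.85% ± 0.651 in the 8 with 4-HT and the allele, where it was 4th of the 20 genes instead of 8th. *Etv5* went from 1.34% ± 0.350 to 1.44% ± 0.143 and 3.48% ± 0.294. *Elf3* stood at 52.3%, 47.5% ± 1.52 and 43.4% ± 3.80, and *Ets2* at 11.3% ± 1.25, 14.9% ± 0.351 and 10.8% ± 0.770. Of the genes beside the 10, *Spdef* stood at 2.36% ± 0.433, 4.43% ± 0.793 and 5.91% ± 1.57. These shares are a description with no test, and a share also moves when other members do.

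**Figure D1:**
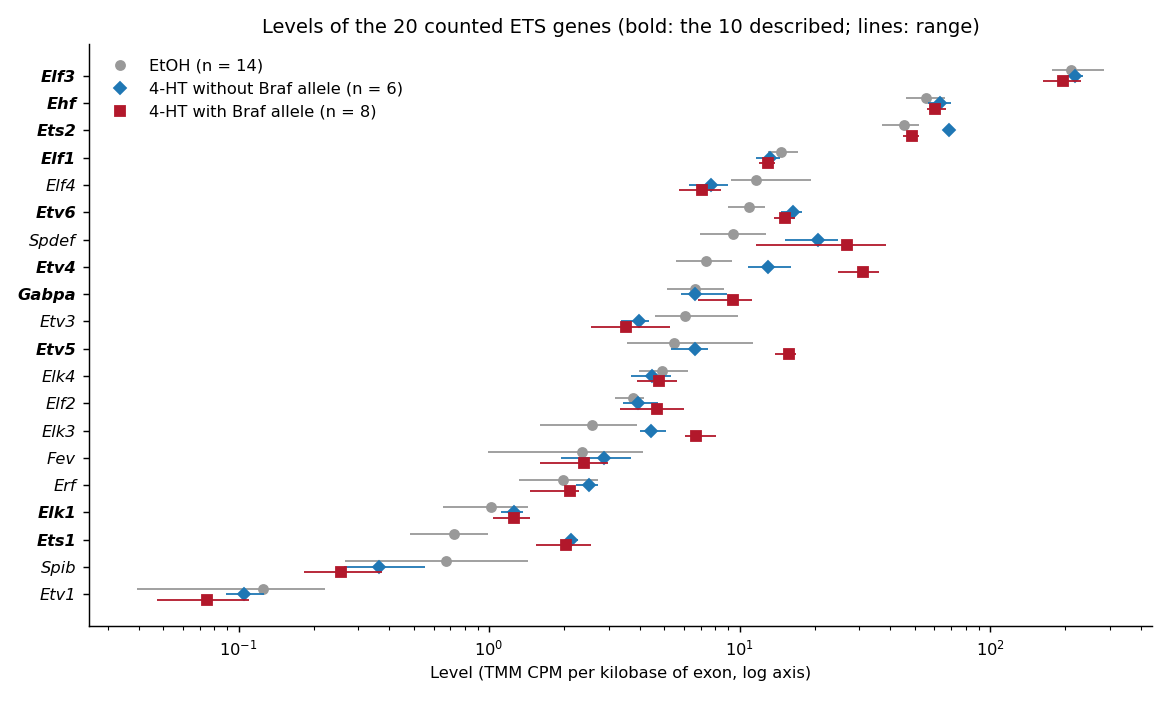
Level of each counted ETS gene in CPM per kilobase of exon on a log axis, as the mean (symbol) and range (line) over 14 EtOH samples, 6 samples with 4-HT without the Braf allele and 8 with it. Etv4 and Etv5 lie at 31.0 and 15.7 CPM per kilobase with 4-HT and the allele, against 7.35 and 5.45 with EtOH, and Elf3 leads in every arm on this scale, though not per coding length.

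Whether the ETS genes responded to 4-HT was asked in each genotype with edgeR's quasi-likelihood test, with Benjamini-Hochberg adjustment over all 13519 genes and a threshold of 0.01. In AC organoids 4 of the 10 genes were higher with 4-HT and 0 lower, where 3.00% of all genes were higher and 4.25% lower. In PAC organoids 4 were higher and 0 lower (all genes 11.2% and 12.2%). In BAC organoids 6 were higher and 0 lower (20.3% and 21.5%), and in BPAC organoids 4 were higher and 0 lower (22.0% and 23.0%). The median 4-HT change of the 10 genes was 0.53, 0.33, 0.46 and 0.31 on the log2 scale for AC, PAC, BAC and BPAC, beside 0.01, -0.03, -0.04 and -0.04 over all genes. *Ets1* and *Etv6* were called in all 4 genotypes, *Gabpa*, *Elf1*, *Elf3* and *Ehf* in 0, and the other 4 in some.

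**Figure D2:**
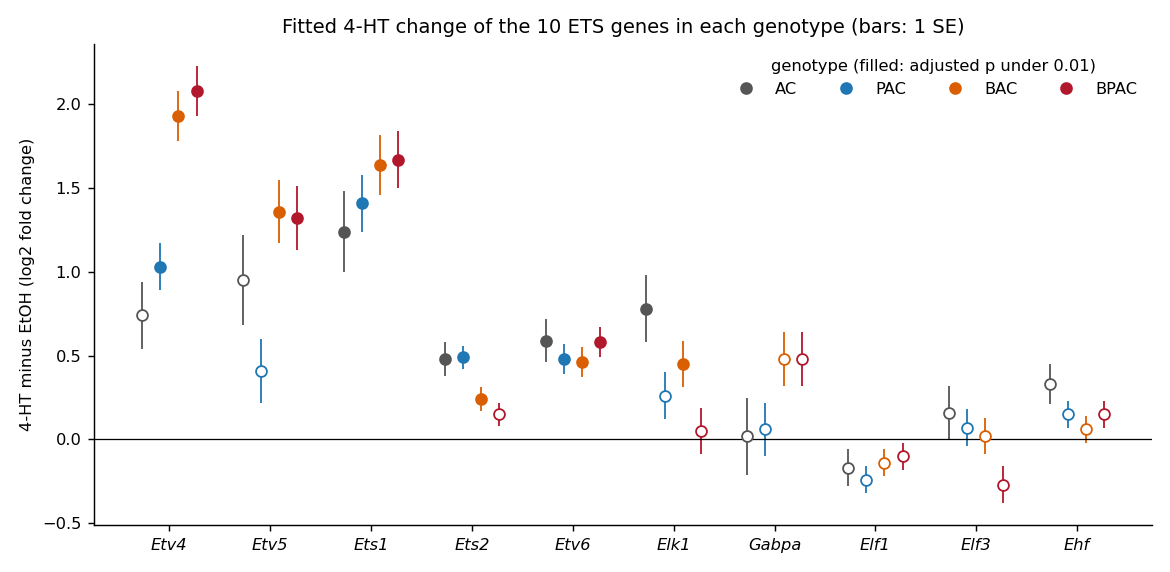
Fitted 4-HT minus EtOH change (log2 fold change, bars 1 SE) of the 10 ETS genes in AC, PAC, BAC and BPAC, with filled symbols for an adjusted p under 0.01 in edgeR's test. Etv4 reaches 2.08 in BPAC and 1.93 in BAC, and 1.03 in PAC and 0.74 in AC, whereas Ets1 and Etv6 are called in all 4 genotypes and Ets2 rises by 0.48 in AC and 0.49 in PAC, with 0.24 for BAC and an uncalled 0.15 for BPAC.

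These counts depended on few samples, as did those over all genes. Without AC duplicate 1 or AC duplicate 2 the AC count was 0, where 0 and 3 of all 13519 genes were higher, with the lone sample of each arm assumed to vary like the other groups. Without the PAC cultures of duplicate 1 the PAC count was 1 (*Ets1*), where 22 of all genes were higher. It was 3 with the replicate block, a term for the culture that the EtOH and 4-HT samples share, where 409 of all genes were higher. With the block and all samples the counts were 6, 4, 6 and 5, where 1007, 2234, 3414 and 3609 of all genes were higher.

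*Etv4*, a PEA3 gene, encodes an ETS activator that ERK both induces and phosphorylates, and the gene is located at chr11:101769742-101785371 (minus strand, GRCm38). With EtOH its level was 24.2 and 22.6 CPM in the AC cultures, 23.4, 19.1, 20.7 and 17.3 in PAC, 28.9, 22.9, 28 and 21.7 in BAC and 21.1, 26.1, 22.0 and 21.2 in BPAC (donor 1 duplicates 1 and 2, then donor 2). With 4-HT the same cultures stood at 43.9 and 34.4 in AC, 46.4, 34.5, 49.6 and 33.6 in PAC, 111.7, 87.6, 101.2 and 86.8 in BAC and 105.6, 76.9, 111.7 and 89.2 in BPAC. Every culture was higher with 4-HT, the EtOH levels of the genotypes overlapped, and the lowest 4-HT sample with the *Braf* allele lay above the highest one without it.

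The *Etv4* change was 1.03 on the log2 scale in PAC (SE 0.14, edgeR adjusted p = 1.71e-05), 1.93 in BAC (SE 0.15, adjusted p = 4.04e-10) and 2.08 in BPAC (SE 0.15, adjusted p = 8.03e-11). In AC it was 0.74 (SE 0.20, adjusted p = 0.0138), which missed the threshold, and with the replicate block it passed at 0.73 (adjusted p = 0.00197). Only 7 of 16 other settings left the AC result on the same side of the threshold. Without the PAC cultures of duplicate 1 the PAC change was 0.90 (adjusted p = 0.0119), and with the block and these cultures left out it was 0.91 (adjusted p = 0.00195). On the log2 scale the 14 cultures rose by 0.60 to 1.26 without the *Braf* allele and by 1.56 to 2.34 with it.

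The effect of the *Braf* allele on the 4-HT change was tested by an interaction term, the BAC and BPAC average less the AC and PAC average. In the fit without the block, *Etv4* was the 1 of the 10 genes past the threshold, and over all genes 3.05% were higher and 3.55% lower in this comparison. Its difference was 1.12 (SE 0.16, adjusted p = 6.63e-05), and it was 1.13 in duplicate 1 alone (adjusted p = 0.000234) and 1.13 in duplicate 2 alone (adjusted p = 0.00719). Leaving out each of the 14 cultures in turn gave 1.06 to 1.21, all past the threshold.

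*Etv5*, the second PEA3 gene, is located at chr16:22381309-22439719 (minus strand) and holds both promoter windows shown above. Its EtOH level was 14.6 and 16.0 CPM in AC, 17.8, 16.0, 23.6 and 21.8 in PAC, 24.1, 23.8, 23.8 and 25.5 in BAC and 20.5, 46.3, 19.9 and 19.5 in BPAC. Its 4-HT level was 28.5 and 30.6 in AC, 30.3, 21.9, 27.3 and 25.5 in PAC, 59.7, 67.6, 65.8 and 56.9 in BAC and 69.0, 64.0, 63.6 and 68.4 in BPAC. With 4-HT the groups with and without the *Braf* allele did not overlap, and with EtOH 1 sample, BPAC donor 1 duplicate 2, stood far above all others.

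The *Etv5* change was 1.36 in BAC (SE 0.19, adjusted p = 2.12e-06) and 1.32 in BPAC (SE 0.19, adjusted p = 2.64e-06), and both passed the threshold. It was 0.95 in AC (SE 0.27, adjusted p = 0.0178) and 0.41 in PAC (SE 0.19, adjusted p = 0.0968), or 0.32 without the PAC cultures of duplicate 1 (adjusted p = 0.503). The replicate block brought AC past the threshold at 0.95 (adjusted p = 0.00717). The difference with the *Braf* allele was 0.66 (SE 0.21, adjusted p = 0.0372) and missed the threshold. Without the BPAC culture that stood apart with EtOH it was 0.88 (adjusted p = 5.67e-05), and the changes in AC and PAC then passed as well (adjusted p = 0.000217 and 0.00388).

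The estimate of the 4-HT level difference does not use the EtOH sample of *Etv5* that stood apart, although that sample enters the spread and so the SE and p. *Etv4* was higher with the *Braf* allele by 1.27 (SE 0.12, adjusted p = 2.65e-08) and *Etv5* by 1.21 (SE 0.16, adjusted p = 1.76e-06) on the log2 scale. The EtOH level was already higher by 0.14 for *Etv4* (SE 0.11, adjusted p = 0.545) and by 0.55 for *Etv5* (SE 0.15, adjusted p = 0.105), and neither passed. Leaving out each culture in turn, the EtOH difference of *Etv5* was 0.34 to 0.61. In all, 3 of the 10 genes had a higher and 1 a lower 4-HT level with the allele, beside 15.6% and 14.6% of all genes. With EtOH, 0 of the 10 differed with the *Braf* allele in edgeR's test (0.0296% of all genes) and 1 in DESeq2's, where 63 of all 13519 genes did. At an unadjusted p under 0.05 in edgeR's test it was 5 of the 10, beside 2319 of all genes.

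**Figure D3:**
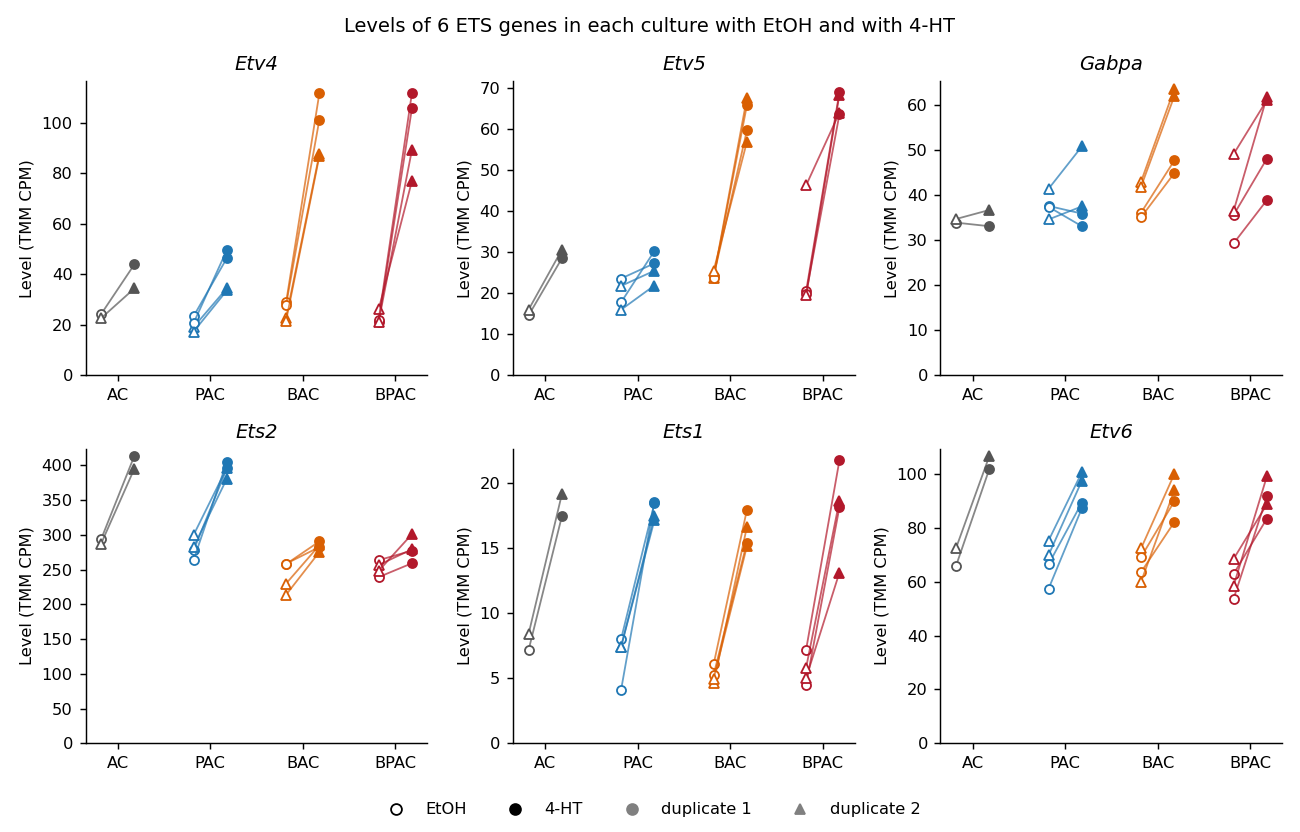
Level (TMM-normalised CPM, axis from 0) of 6 ETS genes in each culture with EtOH (open) and 4-HT (filled), joined by a line, with circles for duplicate 1 and triangles for duplicate 2. Etv4 and Etv5 reach 76.9 to 111.7 and 56.9 to 69.0 CPM with 4-HT and the Braf allele, Ets2 stays at 259.0 to 300.9 there against 380.8 to 413.5 without the allele, and 1 BPAC culture has 46.3 CPM of Etv5 with EtOH.

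*Ets2* and *Ets1* encode closely related activators with an ERK phosphorylation site beside a pointed domain. *Ets2*, at chr16:95702075-95721051 (plus strand), had its highest 4-HT levels in the genotypes without the *Braf* allele, unlike *Etv4* and *Etv5*. Its 4-HT level was 413.5 and 395.1 CPM in AC and 395.4, 380.8, 405.0 and 396.3 in PAC, but 282.3, 285.0, 290.5 and 275.3 in BAC and 277.2, 279.1, 259.0 and 300.9 in BPAC. With EtOH it was 293.4 and 287.0 in AC, 277.8, 282.4, 263.7 and 299.7 in PAC, 258.4, 229.8, 257.8 and 213.7 in BAC and 263.4, 256.5, 239.1 and 248.1 in BPAC. The level rose in every culture, and with 4-HT the genotypes with the *Braf* allele lay below all others by a wide gap.

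The *Ets2* change was 0.48 in AC (SE 0.10, adjusted p = 0.00165), 0.49 in PAC (SE 0.07, adjusted p = 1.42e-05) and 0.24 in BAC (SE 0.07, adjusted p = 0.00418), and 0.15 in BPAC missed the threshold (adjusted p = 0.063). The 4-HT level was lower with the *Braf* allele, with a log2 difference of -0.51 (SE 0.05, adjusted p = 1.07e-07). The difference in the 4-HT change was -0.29 (SE 0.08, adjusted p = 0.0106), just outside the threshold, and passed with the replicate block at -0.29 (adjusted p = 0.007), with limma-voom at -0.29 (adjusted p = 0.00917) and with DESeq2 at -0.28 (adjusted p = 0.00161). It missed the threshold with donors summed at -0.26 (adjusted p = 0.0364), and without the PAC cultures of duplicate 1 at -0.25, also with the block (adjusted p = 0.0548 and 0.0274). In duplicates 1 and 2 alone it was -0.40 and -0.17 (adjusted p = 0.0148 and 0.478). The EtOH level was already lower by -0.22 (SE 0.05, adjusted p = 0.0792), which passed in DESeq2 (adjusted p = 0.00539) but not in limma-voom (adjusted p = 0.087). The PAC change was 0.42 without the duplicate 1 cultures (adjusted p = 0.0253), and 0.42 with the block as well (adjusted p = 0.00659). The BAC call was lost without either BAC culture of duplicate 2 (adjusted p = 0.0317 and 0.0286).

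*Ets1*, at chr9:32636221-32757820 (plus strand), rose in all 4 genotypes. With EtOH it ranged from 4.09 to 8.37 CPM over the 14 samples (median 5.93) and with 4-HT from 13.1 to 21.7 (median 17.7), with no overlap. The change was 1.24 in AC (SE 0.24, adjusted p = 0.00152), 1.41 in PAC (SE 0.17, adjusted p = 4.36e-06), 1.64 in BAC (SE 0.18, adjusted p = 4e-08) and 1.67 in BPAC (SE 0.17, adjusted p = 2.36e-08). The difference with the *Braf* allele was 0.33 (SE 0.19, adjusted p = 0.26), which missed the threshold. The 4-HT level differed with the allele by -0.08 (SE 0.13, adjusted p = 0.647) and the EtOH level by -0.41 (SE 0.14, adjusted p = 0.139), and neither passed. *Ets1* has an EtOH value that stands apart in PAC donor 2 duplicate 1 (4.09 CPM against 7.41 to 7.99 in the others), and its change there was 2.16. The other 5 cultures without the *Braf* allele changed by 1.19 to 1.28 and the 8 with it by 1.37 to 1.99, and the groups overlap once that culture is counted. The *Braf* difference was 0.43 without that culture (adjusted p = 0.0806) and 0.43 without both PAC cultures of duplicate 1 (adjusted p = 0.124, and 0.0284 at 0.42 with the block), and it missed the threshold in each. Without the PAC cultures of duplicate 1 the PAC change was 1.22 (adjusted p = 0.00698).

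*Etv6*, which encodes a transcriptional repressor of the family, is at chr6:134035700-134270158 (plus strand) and rose by a smaller amount. Its level went from 53.7 to 75.3 CPM with EtOH (median 66.2) to 82.2 to 106.7 with 4-HT (median 92.8). The change was 0.59 in AC (SE 0.13, adjusted p = 0.00308), 0.48 in PAC (SE 0.09, adjusted p = 0.00029), 0.46 in BAC (SE 0.09, adjusted p = 0.000139) and 0.58 in BPAC (SE 0.09, adjusted p = 8.79e-06). With minus without the *Braf* allele it was -0.01 (SE 0.10, adjusted p = 0.945). The call in PAC was lost without the duplicate 1 cultures, at 0.45 (adjusted p = 0.036), also with the block (adjusted p = 0.0131).

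*Elk1* encodes a cofactor of the serum response factor and a direct ERK substrate, and *Gabpa* the DNA-binding subunit of GABP, which controls nuclear genes of the mitochondrion. *Elk1*, at chrX:20933395-20950608 (minus strand), had 88 to 323 counts a sample, among the fewest of the 10 together with *Ets1* at 84 to 913. Its level was 3.51 and 4.75 CPM in AC, 5.29 to 6.03 in PAC, 4.39 to 5.84 in BAC and 5.59 to 7.67 in BPAC with EtOH, against 7.11 and 7.12, 6.01 to 7.34, 5.60 to 7.58 and 5.71 to 7.81 with 4-HT. It rose in AC by 0.78 (SE 0.20, adjusted p = 0.00884) and in BAC by 0.45 (SE 0.14, adjusted p = 0.00867), and stood at 0.26 in PAC (adjusted p = 0.156) and 0.05 in BPAC (adjusted p = 0.758).

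The *Elk1* calls were close to the threshold and held in 3 of 14 fits for AC and 5 of 14 for BAC with a culture left out. With each culture left out in turn the AC change was 0.58 to 1.02 (adjusted p = 0.0049 to 0.285) and the BAC change 0.35 to 0.53 (adjusted p = 0.00565 to 0.0837). With the replicate block the BAC change of 0.45 missed it (adjusted p = 0.0122), and in AC limma-voom gave 0.80 (adjusted p = 0.0103). Its EtOH level was higher with the *Trp53* allele by 0.46 (SE 0.11, adjusted p = 0.222), which did not pass. *Elk1* shares 8887 bases of its span with *Uxt* on the same strand, so reads in the shared exons are uncertain.

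*Gabpa*, at chr16:84834925-84863779 (plus strand), was higher with 4-HT in all 8 cultures with the *Braf* allele. Its 4-HT level was 33.1 and 36.7 CPM in AC and 35.9, 37.5, 33.1 and 50.8 in PAC, against 47.7, 63.6, 44.9 and 62.0 in BAC and 48.1, 61.1, 38.9 and 61.8 in BPAC. Its EtOH level ranged from 33.9 to 41.4 in the 6 samples without and from 29.3 to 49.1 in the 8 with the allele. PAC donor 2 duplicate 2 lay within the range of the *Braf* group, and duplicate 2 was above duplicate 1 in each BAC and BPAC donor.

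The *Gabpa* change was 0.02 in AC (adjusted p = 0.961) and 0.06 in PAC (adjusted p = 0.799), and 0.48 in both BAC (SE 0.16, adjusted p = 0.0131) and BPAC (SE 0.16, adjusted p = 0.0132), which missed the threshold. With the replicate block it passed in BAC at 0.47 (adjusted p = 0.000145), in BPAC at 0.48 (adjusted p = 0.000119) and as the difference with the *Braf* allele at 0.44 (adjusted p = 0.00322), where the fit without the block gave 0.44 (SE 0.18, adjusted p = 0.1). The difference passed in that 1 of 15 other settings. With donors summed it was 0.44 (adjusted p = 0.0549), and without the PAC cultures of duplicate 1 it was 0.36, also with the block (adjusted p = 0.252 and 0.0141). The 4-HT level was higher with the allele by 0.53 (SE 0.13, adjusted p = 0.00175), but by 0.45 (adjusted p = 0.0163) without the PAC cultures of duplicate 1 and by 0.49 (adjusted p = 0.0204) without AC duplicate 1. The call of the 4-HT level held in 11 of 13 other settings. *Gabpa* overlaps *Atp5j* on the other strand by 701 bases, and since the strand setting of the counts is not given in the sources used here, reads of both cannot be told apart there.

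**Figure D4:**
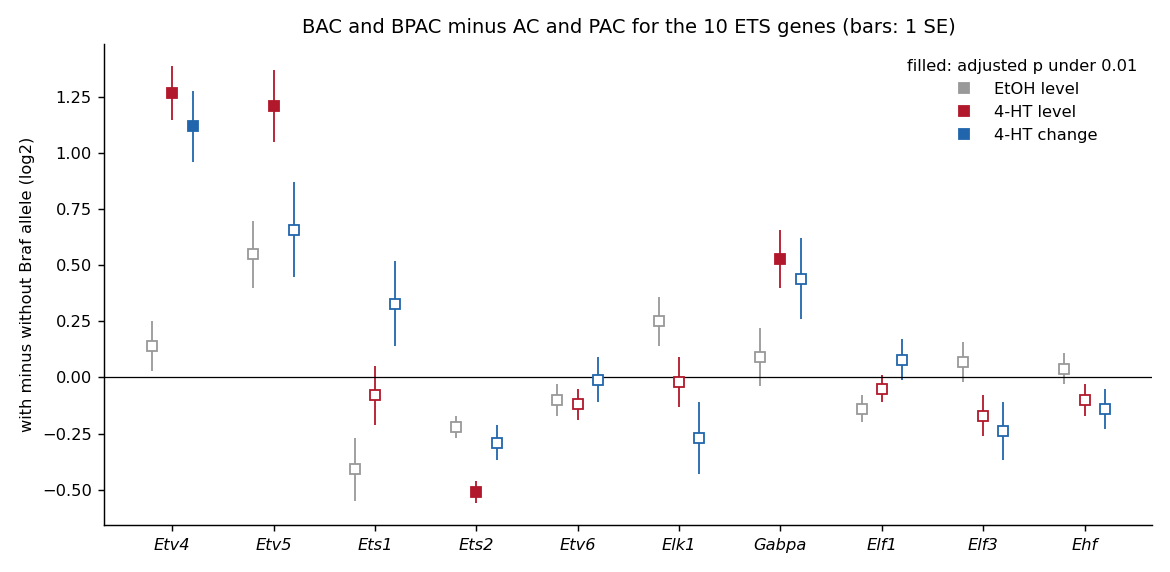
Difference between the genotypes with the Braf allele (BAC, BPAC) and without it (AC, PAC) for the EtOH level, the 4-HT level and the 4-HT change of the 10 ETS genes, on the log2 scale with bars of 1 SE and filled symbols for an adjusted p under 0.01. The 4-HT level differs for Etv4 (1.27), Etv5 (1.21), Gabpa (0.53) and Ets2 (-0.51), the change only for Etv4 (1.12), and the EtOH level for 0 of the 10.

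The epithelial members were abundant and changed little. *Elf3*, at chr1:135253575-135258568 (minus strand), ranged from 392.9 to 632.6 CPM with EtOH (median 463.0) and from 362.2 to 522.5 with 4-HT (median 468.8). Its change was -0.27 in BPAC (adjusted p = 0.0452), 0.02 in BAC, 0.07 in PAC and 0.16 in AC (adjusted p = 0.881, 0.655 and 0.548), and 0 of these passed. The duplicates went apart in BAC, where it was 0.26 and 0.21 in duplicate 1 and -0.27 and -0.17 in duplicate 2. An uncounted antisense gene, Gm26642, covers the whole span of *Elf3*.

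*Ehf*, at chr2:103263433-103303278 (minus strand), ranged from 257.7 to 369.9 CPM with EtOH (median 308.4) and from 310.9 to 391.1 with 4-HT (median 337.0). It was higher with 4-HT in 14 of 14 cultures by 0.01 to 0.38, and the change of 0.33 in AC (SE 0.12, adjusted p = 0.0602) and of 0.15, 0.06 and 0.15 in PAC, BAC and BPAC did not pass. *Elf1*, at chr14:79481194-79582494 (plus strand), was lower in 14 of 14 cultures by 0.04 to 0.38, from 87.6 to 115.3 CPM with EtOH to 78.1 to 97.8 with 4-HT. Its changes were -0.17, -0.24, -0.14 and -0.10 in AC, PAC, BAC and BPAC, with 0 past the threshold (adjusted p = 0.019 in PAC). The replicate block brought *Elf1* in PAC past it at -0.24 (adjusted p = 0.00358), though not without the duplicate 1 cultures (-0.19, adjusted p = 0.136), and scaling by library size alone turned the sign in AC, BAC and BPAC. *Elf1* overlaps *Wbp4* on the other strand by 327 bases.

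The *Trp53* allele moved none of the 10 genes past the threshold. The 4-HT change in PAC and BPAC minus that in AC and BAC was called for 0 of the 10 (0.0148% of all genes by edgeR, 1 of the 10 and 140 of all 13519 genes at an unadjusted p under 0.05, and 0 of the 10 by limma-voom and DESeq2). It was 0.22 for *Etv4* (SE 0.16), -0.30 for *Etv5* (SE 0.21) and -0.46 for *Elk1* (SE 0.16), each with an adjusted p of 1. With EtOH 0 of the 10 differed with this allele (0.0592% of all genes by edgeR, 1 of the 10 and 671 of all 13519 genes at an unadjusted p under 0.05, and 0 of the 10 by limma-voom and DESeq2).

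Of the 8 other genes of a 10-gene MAPK output score, which also holds *Etv4* and *Etv5*, 1 was higher with 4-HT in AC and 0 lower, 2 and 1 in PAC, 5 and 1 in BAC and 4 and 1 in BPAC, beside 3.00%, 11.2%, 20.3% and 22.0% of all genes higher and 4.25%, 12.2%, 21.5% and 23.0% lower. With the replicate block, added for the lists after the data were seen, the numbers higher were 3, 3, 6 and 6, where 1007, 2234, 3414 and 3609 of all genes were higher. The medians were 0.14, 0.06, 0.74 and 0.55 on the log2 scale. The difference with the *Braf* allele was called higher for 2 of the 8, beside 3.05% of all genes. These were *Spry4*, a feedback inhibitor of the receptor cascade, with 1.34 (SE 0.21, adjusted p = 0.000196), and *Dusp6*, an ERK phosphatase, with 0.85 (SE 0.18, adjusted p = 0.00223). With 4-HT *Spry4* ranged from 12.5 to 18.2 CPM with the allele and from 3.23 to 4.85 without, and *Dusp6* from 120.4 to 151.1 and from 59.6 to 72.0. Both differences also passed without the PAC cultures of duplicate 1, at 1.47 and 0.84 (adjusted p = 0.00054 and 0.00673). *Dusp4*, a related phosphatase, had 4-HT levels of 60.6 to 90.6 CPM with and 40.8 to 55.2 without the allele, which did not overlap, while the difference in its change was 0.36 (SE 0.22, adjusted p = 0.292).

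Of the other outputs, *Epha4* changed with the block by 0.77, 0.59, 0.35 and 0.38 in the order AC to BPAC. Its *Braf* difference was -0.31 (adjusted p = 0.0842), and without the PAC cultures of duplicate 1 its PAC change was 0.44 (adjusted p = 0.0524). *Epha2* changed with the block by -0.07, 0.12, 0.39 and 0.04, with a *Braf* difference of 0.19 (adjusted p = 0.117). *Ccnd1* had overlapping 4-HT levels, 78.7 to 104.3 CPM with and 80.7 to 112.9 without the allele. It was higher in PAC by 0.80 (adjusted p = 0.00434), but by 0.56 without the duplicate 1 cultures (adjusted p = 0.216, and 0.0386 with the block). *Phlda1* rose throughout, by 1.12 in BPAC, 0.98 in BAC, 0.78 in PAC and 0.73 in AC (adjusted p = 1.88e-08, 1.58e-07, 2.7e-05 and 0.00364). *Spry2*, a paralogue of *Spry4*, fell in PAC, BAC and BPAC by values of -0.61, -0.63 and -0.51 (adjusted p = 0.000222, 4.79e-05 and 0.00046) and stood at -0.57 in AC (adjusted p = 0.0155). Without the PAC cultures of duplicate 1 the PAC changes of *Phlda1* and *Spry2* were 0.65 and -0.58 and missed the threshold (adjusted p = 0.0326 and 0.0478), and with the block *Phlda1* passed (adjusted p = 0.00819) and *Spry2* did not (adjusted p = 0.0254). Of 7 immediate early genes 5 were counted, and 0 were higher in any genotype, while 0 were lower in AC and PAC and 1 in BAC and BPAC, beside 20.3% and 22.0% of all genes higher and 21.5% and 23.0% lower in those 2 genotypes. With the block 0 were higher and 0, 2, 2 and 3 lower in the order AC to BPAC, where 1216, 2483, 3603 and 3749 of all genes were lower. Both PAC calls (*Fos* and *Mcl1*) were lost without the duplicate 1 cultures (adjusted p = 0.0324 and 0.207 with the block). *Egr1*, a target of *Elk1* and the serum response factor, was lower in BAC by -1.06 (adjusted p = 0.0018) and in BPAC by -1.03 (adjusted p = 0.00227). With the block its change was lower with the *Braf* allele by -0.83 (adjusted p = 0.000192), the 1 call among the 5, where 1011 of all genes were lower. With the PAC cultures of duplicate 1 left out as well it was -0.89 (adjusted p = 0.000341). The fit without the block called 0 of the 5 in this difference.

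Of 11 regulators and partners of ETS proteins, 0 were called in AC, 0 higher and 2 lower in PAC, 2 and 3 in BAC and 2 and 2 in BPAC, with medians of 0.05, 0.04, 0.08 and -0.06. Over all genes 3.00% were higher and 4.25% lower in AC, 11.2% and 12.2% in PAC, 20.3% and 21.5% in BAC and 22.0% and 23.0% in BPAC. The change of the repressor *Cic* was between -0.27 and -0.07 and not called. Its difference with the *Braf* allele was -0.15 with the replicate block (adjusted p = 0.378). The *Cic* 4-HT level was lower with the allele by -0.45 (SE 0.10, adjusted p = 0.00117), into which a lower EtOH level also enters. In that comparison of 4-HT levels 1 of the 11 was higher (*Gabpb1*) and 4 lower (*Cic*, *Atxn1*, *Trib1* and *Mrtfb*), beside 15.6% and 14.6% of all genes. *Atxn1*, a partner of Capicua, was lower in PAC, BAC and BPAC by -0.76, -1.15 and -1.27 (adjusted p = 0.000835, 2.75e-06 and 5.57e-07). The ubiquitin ligase components that degrade PEA3 proteins split, with *Cop1* lower in PAC and BAC (-0.23 in both, adjusted p = 0.00968 and 0.00599) and *Det1* higher in BAC and BPAC (0.53 and 0.52, adjusted p = 0.00019 and 0.000203). *Trib1*, an adaptor of *Cop1*, was lower in BAC and BPAC (-0.55 and -0.61, adjusted p = 0.000224 and 6.54e-05). For the *Braf* difference in the 4-HT change the fit without the block called 0 of the 11. With the block 1 was lower, *Trib1* at -0.43 (adjusted p = 0.00529), where 1011 of all genes were lower. With the PAC cultures of duplicate 1 left out as well, *Trib1* (-0.48, adjusted p = 0.00239) and *Mrtfb* (-0.55, adjusted p = 0.00851) were lower, where 996 of all genes were. The PAC changes of *Atxn1* and *Cop1* without the duplicate 1 cultures stood at -0.64 and -0.14 and were not called (adjusted p = 0.105 and 0.36, and 0.0313 and 0.236 with the block).

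*Gabpb1*, the partner subunit of *Gabpa*, was higher in BAC by 0.33 (adjusted p = 0.00109) and in BPAC by 0.45 (adjusted p = 3.66e-05). Of 5 genes known as GABP targets, 0 were called in AC and 1 was lower in PAC (*Cox5b*, -0.49, adjusted p = 0.00258). Over all genes 3.00% were higher and 4.25% lower in AC, and 11.2% and 12.2% in PAC. With the block 2 of the targets were lower in both genotypes (*Cox4i1* and *Cox5b*), where 1216 and 2483 of all 13519 genes were lower. Neither PAC change was called without the duplicate 1 cultures (adjusted p = 0.109 for *Cox5b* and 0.238 for *Cox4i1*, and 0.0326 and 0.0909 with the block). In the fit without the block 2 targets were higher and 2 lower in BAC and 3 higher and 2 lower in BPAC, with medians of 0.34 and 0.41, beside 20.3% and 21.5% of all genes for BAC and 22.0% and 23.0% for BPAC. The mitochondrial transcription factors *Tfam* (0.34 and 0.41), *Tfb2m* (0.49 and 0.59) and, in BPAC, *Tfb1m* (0.70) were the higher ones. The respiratory chain subunits *Cox4i1* (-0.76 and -0.68) and *Cox5b* (-0.93 and -0.85) were the lower ones. The targets thus did not move in one direction.

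**Figure D5:**
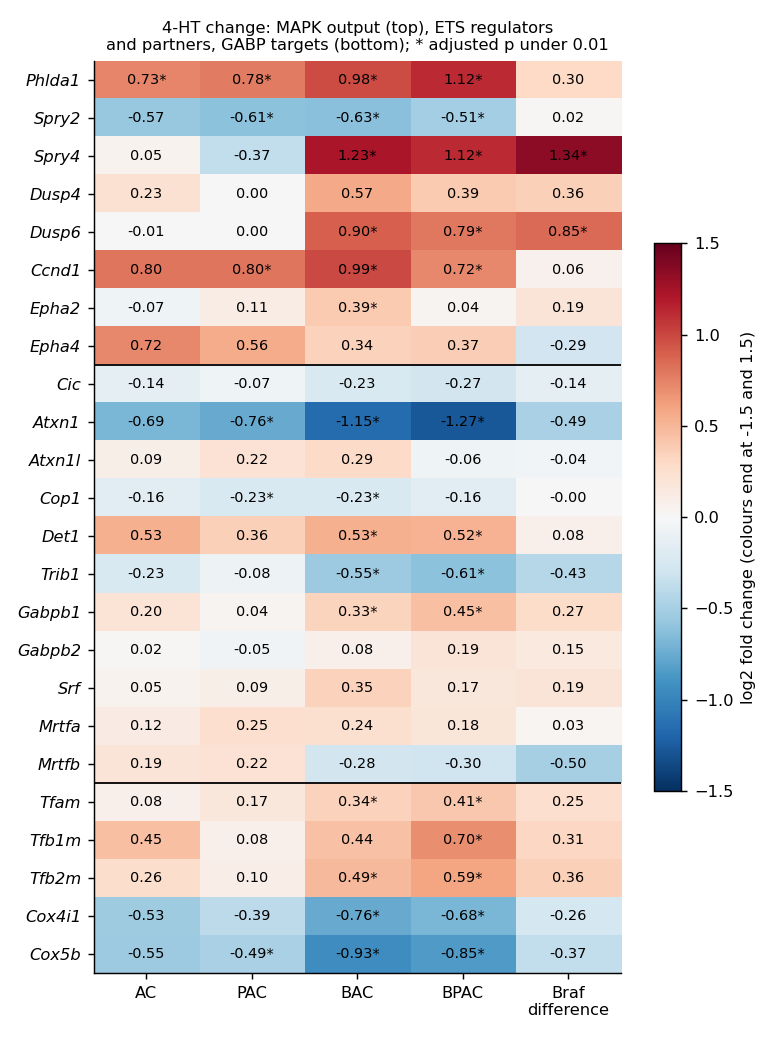
Fitted 4-HT change (log2 fold change, printed in each cell) of the MAPK output genes, the ETS regulators and partners and the GABP targets in AC, PAC, BAC and BPAC, and the difference with the Braf allele in the last column, with an asterisk for an adjusted p under 0.01. Spry4 and Dusp6 are called in BAC, BPAC and the Braf column, Phlda1 in all 4 genotypes, and Cox4i1 and Cox5b fall while Tfam and Tfb2m rise in BAC and BPAC.

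Among the 10 other ETS genes counted of a list of 17, *Elk3*, a relative of *Elk1*, was the 1 whose 4-HT change was higher with the *Braf* allele, and 0 were lower, beside 3.05% and 3.55% of all genes. With 4-HT 0 of the 10 were called in AC, 2 were higher and 0 lower in PAC, 2 and 3 in BAC and 2 and 2 in BPAC, beside the all-gene shares given for the MAPK list, and with the block 2 were lower in PAC (*Etv3* and *Elf4*), calls lost without the duplicate 1 cultures (adjusted p = 0.0288 and 0.197). The *Elk3* difference was 1.13 (SE 0.19, adjusted p = 0.000275), since it changed by 1.63 in BAC and 1.60 in BPAC (adjusted p = 2.88e-08 and 2.94e-08) but by 0.64 in PAC and 0.34 in AC (adjusted p = 0.00432 and 0.349). Its 4-HT level was 6.03 to 8.06 CPM per kilobase with and 4.02 to 5.10 without the allele, against 1.60 to 3.90 with EtOH over all genotypes. The EtOH level thus enters the *Elk3* difference as well. Without the PAC cultures of duplicate 1 this difference was 1.31 (adjusted p = 8.11e-05) and the PAC change was 0.28 and not called (adjusted p = 0.408, and 0.22 with the block). *Spdef*, a goblet cell factor, was higher in PAC, BAC and BPAC by 1.08, 1.53 and 1.66 (adjusted p = 0.00104, 8.64e-06 and 2.5e-06), and its PAC change was 0.61 without those cultures (adjusted p = 0.271, and 0.11 with the block). Of the 6 goblet markers 1 was higher (*Agr2*) and 3 lower (*Tff3*, *Fcgbp* and *Zg16*) in both BAC and BPAC, beside 20.3% and 21.5% of all genes in BAC and 22.0% and 23.0% in BPAC. In AC and PAC 0 of the 6 were called, but with the block 2 were lower in AC and 1 was higher and 3 lower in PAC, where 1216 of all genes were lower in AC and 2234 were higher and 2483 lower in PAC. These 4 PAC calls were all lost without the duplicate 1 cultures, also with the block (adjusted p = 0.0785 for *Agr2*, 0.0302 for *Clca1*, 0.111 for *Fcgbp* and 0.0114 for *Zg16*). The list had medians of -0.63, -0.40, -1.44 and -1.36 in the order AC to BPAC. *Elf4* was lower in BAC and BPAC (-0.74 and -0.86), as was *Etv3* (-0.87 and -0.85), and *Spib* was lower in BAC (-1.37, adjusted p = 0.00814), a call lost with the block (adjusted p = 0.0119). *Etv1*, the remaining PEA3 gene, was at 0.125 CPM per kilobase ± 0.0586 with EtOH, the lowest of the 20. Its level was 1.56 to 2.48 CPM with EtOH and 0.630 to 1.20 with 4-HT in BAC, and 0.705 to 2.95 and 0.737 to 1.47 in BPAC. Its BAC and BPAC changes of -1.07 and -0.81 (adjusted p = 0.0248 and 0.0822) and its *Braf* difference of -0.91 (adjusted p = 0.172) had the opposite sign to those of *Etv4* and *Etv5* and missed the threshold. With the block the BAC change was called at -1.10 (adjusted p = 0.00452) and the *Braf* difference of -0.89 was not (adjusted p = 0.062).

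Markers of cell state moved with 4-HT beside all of these results. The 8 epithelial markers summed to 17671.6 to 28531.2 CPM with EtOH and 15908.1 to 21501.9 with 4-HT. In the order AC to BPAC 0, 2, 4 and 4 of them were lower, beside 4.25%, 12.2%, 21.5% and 23.0% of all genes. In each genotype 0 were higher, beside 3.00%, 11.2%, 20.3% and 22.0%. No epithelial marker was called in PAC without the duplicate 1 cultures. The summed level of 6 colonocyte markers was 16834.3 to 26351.7 CPM with EtOH and 4477.1 to 12261.9 with 4-HT, and 5 counted stem cell markers of a list of 6 stood at 139.5 to 273.3 and 346.0 to 606.1. The 6 goblet markers summed to 2159.7 to 5640.8 CPM with EtOH and 1906.2 to 3118.5 with 4-HT. The 5 proliferation markers summed to 441.1 to 598.5 CPM with EtOH, and with 4-HT to 702.0 to 767.6 without and 972.4 to 1053.7 with the *Braf* allele. Of these 5 genes 1, *Ccnb1*, had a 4-HT change that was called higher with the allele (0.66, SE 0.11, adjusted p = 0.000236), beside 3.05% of all genes. With the block 3 of the 5 were, *Ccnb1*, *Top2a* (0.44, adjusted p = 0.00697) and *Pcna* (0.40, adjusted p = 0.0027), where 880 of all 13519 genes were higher, and with the PAC cultures of duplicate 1 left out as well *Mcm2* was the fourth (0.54, adjusted p = 0.00632). The part of cell state in the ETS changes was not tested.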

How the data were processed

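Bulk RNA-seq libraries of 28 mouse colon organoid samples were analysed as gene counts. The authors deposited whole-number counts per gene, not normalised, after trimming with Trimmomatic 0.39 and alignment with STAR 2.5.2b to GRCm38 (mm10) per the submitters' processing notes. The counting program, annotation and strand setting are not given in the sources used here. All 13519 genes had at least 116 counts over the samples, 13479 had a symbol, and the totals of 20577276 to 40068718 counts per sample limit the precision of low genes.

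Counts were scaled by trimmed mean of M values (TMM) factors, 0.885 to 0.970 with EtOH and 1.040 to 1.100 with 4-HT, and tested with edgeR 4.0.16 (quasi-likelihood test, 8 group means, Benjamini-Hochberg adjustment over all genes, threshold 0.01) in R 4.3.3. The study's own methods use limma, so limma-voom (limma 3.58.1) and DESeq2 1.42.0 served as alternatives, with other scalings, filters, thresholds, thinning to 20577276 counts, donors summed, each duplicate alone and each culture left out. Levels are TMM-normalised CPM, and log2 values per culture use a prior count of 2. Tables were handled with Python 3.11.15, pandas 2.3.3 and numpy 2.4.6. Scripts were tested on simulated data.

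The replicate block is the culture, the donor and duplicate number that the EtOH and 4-HT samples share in the labels. Deviations from the group means correlated within each of the 14 cultures (r = 0.245 to 0.532). Different cultures that share a donor or a duplicate number were not compared. This check therefore cannot tell pairing by culture from an effect of the donor or the duplicate. In AC the deviations of the 2 cultures mirror each other, so both have the same r (0.429). Duplicates are cultures of the same mice, and p-values measure the spread between cultures, not between animals. The label of 1 BAC sample lacks the number, and it was treated as duplicate 1.

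The 10 genes and all gene lists were chosen with earlier results of these data known. All 10 were described, and the other named genes are members of the lists, given as examples beside the counts of each list, and the 5 genes most like *Etv4* and *Etv5* by Pearson's r, of which 1 is not reported here. Promoter windows are from RefSeq (GRCm38.p6).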

Additional observations from a re-analysis of the deposited data

Results flagged for a closer look

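Among 90 groups of 4 values tested, 5 held a sample far from the other 3, its gap exceeding Dixon's critical share of the group's range, and chance alone flags about 1 in 20 groups. *Etv5* with EtOH stood at 46.3 CPM in BPAC donor 1 duplicate 2, against 19.5 to 20.5 in the other BPAC samples, and its 4-HT change was 0.47 there, against 1.67 to 1.81. *Ets1* with EtOH stood at 4.09 CPM in PAC donor 2 duplicate 1, against 7.41 to 7.99, and its 4-HT change was 2.16, against 1.20 to 1.22. The 4-HT sample of that culture is 1 of the 2 PAC samples with both *Xist* and *Ddx3y*. *Elk1* with EtOH stood at 5.84 CPM in BAC donor 2 duplicate 2, against 4.39 to 4.55.

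The 4-HT change of *Etv4* differed between the genotypes with and without the *Braf* allele by 1.12 on the log2 scale (edgeR adjusted p = 6.63e-05 for the difference itself).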

How the results depend on the processing

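The number of the 10 genes higher with 4-HT in AC was 4, against 7 with library size alone, 0 with each genotype fitted alone, 1 with donors summed, 2 in duplicate 1 alone, 0 in duplicate 2 alone and 0 to 6 with a culture left out. Over all genes the number higher in AC was 406, and 1511, 37, 196, 262 and 0 under the first 5 of these settings. In PAC the number higher was 4, against 7 with library size alone, 0 in duplicate 2 alone and 1 without the PAC cultures of duplicate 1 (all genes 1511, against 3388, 2 and 22). The number lower in PAC was 0, against 1 with the replicate block, with the duplicate as covariate and at a threshold of 0.05 (all genes 1655, against 2483, 2348 and 2582). In BAC 6 higher became 3 in duplicate 1 alone (all genes 2751 and 2670). In BPAC 4 higher became 7 with library size alone (all genes 2979 and 4331) and 0 lower became 1 at 0.05 (all genes 3110 and 3946). For the *Braf* difference in the 4-HT change, 1 higher became 2 with the replicate block and at 0.05 (all genes 413, against 880 and 983). With a culture left out it ranged from 1 to 2. The 0 lower in this difference became 1 with limma-voom, DESeq2, library size alone, at least 50 counts, the replicate block, the duplicate as covariate, thinning and 0.05. Over all genes the number lower was 480, and 484, 697, 514, 490, 1011, 814, 460 and 1006 under these settings. With a culture left out the 0 lower ranged from 0 to 1. The 0 whose EtOH level differed with the *Braf* allele became 1 with DESeq2, where the calls over all genes went from 4 to 63. Fewer samples enter the duplicate and left-out fits, and for the others the cause was not tested.

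The sign turned for small changes only, none of them called. *Etv6* (*Braf* difference, -0.01) gave 0.01 with donors summed, 0.06 in duplicate 2 alone, 0.00 with the replicate block without PAC duplicate 1, and -0.05 to 0.02 with a culture left out. *Ets1* (4-HT level, -0.08) gave 0.03 in duplicate 1 alone. *Elf1* gave 0.05, 0.03 and 0.12 in AC, BAC and BPAC with library size alone. *Elf3* in PAC (0.07) gave -0.09 in duplicate 2 alone and without PAC duplicate 1, also with the block, and -0.02 to 0.16 with a culture left out. In BAC (0.02) it gave -0.01 at 50 counts, -0.22 in duplicate 2 alone and -0.07 to 0.11 with a culture left out. *Elk1* in BPAC (0.05) gave -0.19 in duplicate 2 alone and -0.03 to 0.21, and its 4-HT level (-0.02) gave 0.01 with donors summed and thinned, 0.05 in duplicate 1 alone and -0.06 to 0.02. *Gabpa* in AC (0.02) gave -0.01 with donors summed, -0.05 in duplicate 1 alone and -0.04 to 0.08, and in PAC (0.06) -0.11 in duplicate 1 alone and -0.04 to 0.13.

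With library size alone the median change of all genes rose from 0.01 to 0.23 in AC, -0.03 to 0.20 in PAC, -0.04 to 0.13 in BAC and -0.04 to 0.18 in BPAC, and the share of calls that were higher from 41.4% to 83.3%, 47.7% to 82.1%, 48.6% to 65.3% and 48.9% to 68%. In the *Braf* difference that share went from 46.2% to 34.6%. Beside the 8 changes of call given above for *Etv4*, *Etv5*, *Ets2*, *Elf1*, *Elk1* and *Gabpa*, the replicate block changed no other call of the 10 genes in the comparisons refitted with it, while over all genes the calls went from 980 to 2223 in AC and from 893 to 1891 for the *Braf* difference. The lowest counts among the 10 genes were those of *Ets1* and *Elk1*, 84 to 913 and 88 to 323 a sample.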

Other observations

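The genes whose 4-HT change was most like that of *Etv4* over the 14 cultures were *Odc1*, the rate-limiting enzyme of polyamine synthesis (Pearson's r = 0.976), the RNA helicase *Dhx15* (0.964), *Spats2l* (0.961), the formin *Fmnl3* (0.958) and *Ckap4* (0.957). *Odc1* changed by 0.76 on average with the *Braf* allele and by 0.26 without, and *Spats2l* by 2.31 and 0.62. Within the 8 cultures with the allele r was 0.80 to 0.91 for these 5 genes. Genes most like *Etv5* included *Eml4* (0.970), the m6A reader *Ythdf1* (0.942), *Mrps2* (0.930) and *Gopc* (0.927). The cultures share donors, libraries and the genotype split, so these correlations describe the cultures and carry no test, and those of *Etv5* include the BPAC culture that stood apart with EtOH. *Etv4* and *Etv5* themselves correlated at 0.764, and *Etv4* and *Ets2* at -0.770.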
